A study of Mus musculus with 2 samples.

Results

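The subject here is the mRNA of 10 transcription regulators that hold haematopoietic stem cells (HSCs) in their state: Gata2, Runx1, Tal1, Lmo2, Lyl1, Erg, Fli1, Mecom, Hlf and Meis1. They were chosen by name as stem cell transcription factors, 10 of the 54531 genes in the deposited table, and all 10 were matched to a row by Ensembl identifier and gene symbol. RNA of HSCs sorted from the bone marrow of mice was sequenced as 150 bp paired-end reads. One library came from Cdh5-Cre;Angptl2fl/fl mice, whose cells are called Cre-deletion HSCs here. They carry floxed alleles of Angptl2, an angiopoietin-like secreted factor, together with a Cre recombinase under the promoter of Cdh5, a cadherin of endothelial cells, and are labelled as deficient in Angptl2 in the endothelium. The other library, of control HSCs, came from mice with the title and genotype Angptl2fl/fl, although its description and column name read Cdh5_Cre and mention no floxed allele. Whether the control mice carried Cre is therefore not settled by the labels, nor is the age, the number of mice or the surface markers of the sort. Constitutive Cdh5-Cre lines are also known to act in the endothelium of the embryo that gives rise to HSCs, and the labels do not say whether the HSCs kept Angptl2. With 1 library per genotype there is no replicate check and no test across samples, so "higher" and "lower" describe these 2 libraries.

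A small set of DNA-binding proteins keeps HSCs self-renewing. TAL1 and LYL1 are basic helix-loop-helix proteins that pair with E proteins on E-box motifs, GATA2 is a zinc finger protein that binds GATA motifs, and LMO2 binds no DNA but bridges them through LDB1. ERG and FLI1 are ETS factors and RUNX1 binds DNA with its partner CBFB. Together these 7 are known to occupy shared enhancers in blood progenitors, many of them in each other's genes. MECOM (the EVI1 zinc finger protein), HLF (a PAR bZIP protein) and MEIS1 (a TALE homeodomain protein that works with HOX proteins) are more restricted to the most immature cells and are lost early in differentiation.

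The promoters of 4 members are shown for reading with the values below: Lyl1, with the highest ratio between the libraries, its relative Tal1, and Hlf and Meis1 from the group that was lower. Each is the 250 bases before the RefSeq start on GRCm38.p6, printed 5′ to 3′ on the gene's strand. Capitals mark GATAA (the core of a GATA motif) and GGAAG (an ETS core) on either strand, which read TTATC and CTTCC on the other. Which of several known starts these cells used was not measured.
Lyl1 promoter, chr8:84701207-84701456, plus strand: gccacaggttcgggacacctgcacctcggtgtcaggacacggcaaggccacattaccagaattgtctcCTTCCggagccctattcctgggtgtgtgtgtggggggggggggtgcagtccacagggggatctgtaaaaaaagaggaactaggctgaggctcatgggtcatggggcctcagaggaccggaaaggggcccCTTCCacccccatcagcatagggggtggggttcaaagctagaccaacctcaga
Tal1 promoter, chr4:115056176-115056425, plus strand: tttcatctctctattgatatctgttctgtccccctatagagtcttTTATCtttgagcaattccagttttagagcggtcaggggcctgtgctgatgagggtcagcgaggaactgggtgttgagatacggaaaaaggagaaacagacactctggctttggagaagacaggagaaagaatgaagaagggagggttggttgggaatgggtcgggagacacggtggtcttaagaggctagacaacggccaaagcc
Hlf promoter, chr11:90390918-90391167, minus strand: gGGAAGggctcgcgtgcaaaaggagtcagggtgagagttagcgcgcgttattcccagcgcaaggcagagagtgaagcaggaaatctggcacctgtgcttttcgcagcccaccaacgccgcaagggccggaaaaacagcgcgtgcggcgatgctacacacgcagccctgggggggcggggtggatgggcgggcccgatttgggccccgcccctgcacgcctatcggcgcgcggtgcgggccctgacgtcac
Meis1 promoter, chr11:19018970-19019219, minus strand: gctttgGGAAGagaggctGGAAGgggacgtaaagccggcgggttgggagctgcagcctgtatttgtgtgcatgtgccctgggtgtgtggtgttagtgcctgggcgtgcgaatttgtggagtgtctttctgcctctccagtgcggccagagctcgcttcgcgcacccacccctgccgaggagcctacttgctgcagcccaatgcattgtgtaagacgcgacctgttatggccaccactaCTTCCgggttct
The Lyl1 window held 2 ETS matches and no GATA match, that of Tal1 1 GATA match and no ETS match, that of Hlf 1 ETS match, and that of Meis1 3 ETS matches. A window before another start of Tal1, not shown, held 1 ETS match and no GATA match. The RefSeq table held 14 such windows for 8 of the members (Gata2, Runx1, Tal1, Lyl1, Erg, Mecom, Hlf and Meis1). GGAAG lay in 8 of these 14 windows, and in 64.1% of all 32851 windows of the table. GATAA lay in 4 of the 14 (of Tal1, Erg and Mecom), and in 22.6% of all windows. The E-box CANNTG lay in 6 of the 14 against 66.2% of all windows, TGTGGT (RUNX) in 1 against 14.0%, and TGACAG (MEIS) in 2 against 15.9%, counted on both strands. Windows of the same gene are not independent, so these counts are a description only.

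Levels are FPKM, as the authors calculated them: fragments of a gene divided by the length of its model in kilobases and by the fragments of the library in units of 1000000. FPKM times exon length fell on whole multiples of 1 step for 96.1% of the genes above 0 in Cre-deletion HSCs and 96.5% in control HSCs, within 0.02 of a whole number. That gave depths of 16843100 fragments for Cre-deletion HSCs and 17378600 for control HSCs and a fragment number for each of the 10 members. Cre-deletion HSCs had 294 genes with exactly 1 fragment, against 1386 in control HSCs, and its most frequent fragment number among 1 to 10 was 6, against 1 in control HSCs. Counting intervals (exact Clopper-Pearson, 95%) treat every fragment as an independent molecule and cover counting error only. They were also computed with the fragments of both libraries divided by 6, the most frequent number in Cre-deletion HSCs only. The number of fragments per molecule was not measured, so 6 is a rough setting and not an estimate. The FPKM of all genes summed to 419943 in Cre-deletion HSCs and 379052 in control HSCs, and mitochondrially encoded genes made up 13.7% of that sum in Cre-deletion HSCs and 8.91% in control HSCs. Rescaling both libraries to a common total therefore lowers every ratio taken without a pseudocount. Both libraries held markers of HSCs and, at a far higher summed level, of erythroid and myeloid cells. Kit, the stem cell factor receptor, was at 48.8 FPKM in Cre-deletion HSCs and 54.3 in control HSCs. Slamf1, which encodes the CD150 often used to sort HSCs, was at 0.55 FPKM in Cre-deletion HSCs and 0.40 in control HSCs. The erythroid gene Car1 was at 1629 FPKM in Cre-deletion HSCs and 1315 in control HSCs. The 12 erythroid markers, most of whose sum was Car1 and Car2, summed to 3192 FPKM in Cre-deletion HSCs and 2802 in control HSCs, and the 14 HSC markers to 102 FPKM in Cre-deletion HSCs and 118 in control HSCs. Several members, among them Gata2, Tal1, Lmo2 and Lyl1, are also known to be expressed in erythroid, megakaryocyte and mast cell progenitors, and in these bulk libraries fewer cells of a type and less RNA per cell cannot be told apart.

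All 10 factors were detected, and none of the 10 differed by 2-fold or by 1.5-fold between the libraries. Across the 12325 genes of the table that averaged 1 FPKM or more over both libraries, 5.86% differed by at least 2-fold and 11.8% by at least 1.5-fold, on the log2((FPKM + 1)/(FPKM + 1)) scale, deletion over control. Among the 10232 protein-coding genes counted, 1.24% passed 2-fold. All 10 members are protein-coding, but the other shares and quartiles given here for all genes also include non-coding genes. Those were not computed for protein-coding genes alone, so they may make the members look more ordinary than genes of their own type would. All 10 members passed the minimum mean of 1 FPKM. The log2 ratios of the members ran from -0.31 (Erg) to 0.27 (Lyl1), with 7 below 0 and 3 above, or 9 and 1 on a common total. Of all genes counted, 51.6% were below 0 and 48.4% above. On a common total of 1000000, 68.0% were below 0 and 32.0% above, among the 15021 genes that then reached the minimum mean. The pseudocount of 1 was added after that rescaling, so it weighed less there. The median of the members was -0.059 and that of all genes -0.011, whose quartiles were -0.20 and 0.18. Inside those quartiles lay 6 members, 3 lay below (Erg, Hlf and Meis1) and 1 above (Lyl1).

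**Figure D1:**
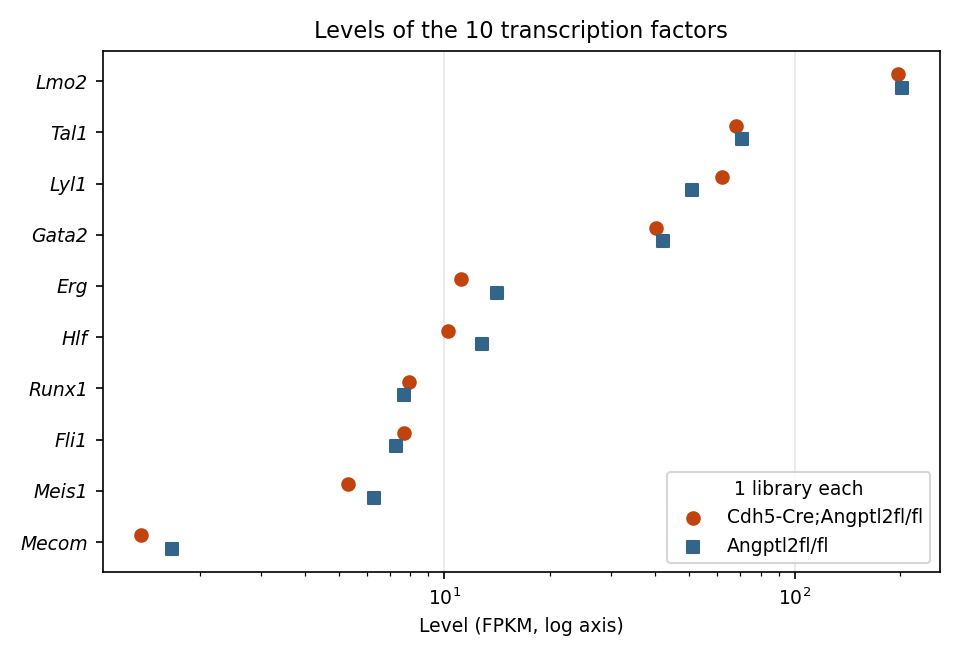
Level of each factor in Cre-deletion HSCs (circles) and control HSCs (squares), 1 library each, in FPKM on a log axis. Lmo2 stood near 200 FPKM and Mecom under 2 FPKM in both libraries, and the order of the 10 was the same.

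The components of the TAL1 complex were the most abundant members. Lmo2, the bridging protein, was at 197 FPKM (7201 fragments) in Cre-deletion HSCs and 202 FPKM (7613 fragments) in control HSCs. It ranked 180th among the 21918 protein-coding genes of Cre-deletion HSCs and 160th in control HSCs. Tal1 was at 68.2 FPKM (5032 fragments) in Cre-deletion HSCs and 70.8 FPKM (5389 fragments) in control HSCs. The counting interval of its log2 ratio, without a pseudocount, ran from -0.11 to 0.0020, and that of Lmo2 from -0.082 to 0.012, so both included equality. Gata2 was at 40.3 FPKM (3661 fragments) in Cre-deletion HSCs and 42.2 FPKM (3958 fragments) in control HSCs, a log2 ratio of -0.067 with an interval of -0.13 to -0.0022. For Gata2 the interval with fragments divided by 6 was -0.23 to 0.094 and included equality. Without a pseudocount the ratios of these 3 genes were 0.976 for Lmo2, 0.963 for Tal1 and 0.954 for Gata2, deletion over control. On a common total their log2 ratios were lower, at -0.18 for Lmo2, -0.20 for Tal1 and -0.22 for Gata2, and all 3 intervals excluded equality, also with fragments divided by 6. The median of all genes, with the pseudocount, was then -0.16 over 15021 genes, against -0.011 over 12325 genes as deposited.

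Lyl1, the relative of Tal1 that can stand in for it in adult HSCs, was the member with the highest ratio. Its level was 61.9 FPKM (1877 fragments) in Cre-deletion HSCs and 51.0 FPKM (1596 fragments) in control HSCs, a 1.21-fold difference. The log2 ratio was 0.28 with an interval of 0.18 to 0.38, and 0.039 to 0.52 with fragments divided by 6. On a common total it was 0.13 (0.034 to 0.23), and the interval with fragments divided by 6, -0.11 to 0.37, included equality. As deposited and with the pseudocount, the log2 ratio of Lyl1 was 0.27. On that scale 83.3% of all genes counted had a lower ratio, and 34.4% lay at least as far from 0 in either direction. Summed over Tal1, Lyl1, Lmo2 and Gata2, the level was 368 FPKM in Cre-deletion HSCs and 366 FPKM in control HSCs, but 0.906-fold, deletion over control, on a common total. These 4 genes made up 89.4% of the sum over the 10 members in Cre-deletion HSCs and 88.0% in control HSCs.

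The ETS and RUNX members were less abundant. Erg, which HSCs need to maintain themselves, had the lowest ratio of the 10, at 11.2 FPKM (653 fragments) in Cre-deletion HSCs and 14.1 FPKM (849 fragments) in control HSCs. Its log2 ratio was -0.33 with an interval of -0.48 to -0.18, and of -0.71 to 0.037, which includes equality, with fragments divided by 6. With the pseudocount the log2 ratio of Erg was -0.31. On that scale 15.1% of all genes counted had a lower ratio than Erg and 29.6% lay at least as far from 0. Fli1, the closest relative of Erg, was at 7.65 FPKM (449 fragments) in Cre-deletion HSCs and 7.30 FPKM (442 fragments) in control HSCs, with an interval of -0.12 to 0.26. Runx1, required for HSCs to form from endothelium in the embryo, was at 7.91 FPKM (1603 fragments) in Cre-deletion HSCs and 7.66 FPKM (1601 fragments) in control HSCs, with an interval of -0.054 to 0.15. As deposited, Fli1 and Runx1 were thus not distinguishable between the libraries at this depth. Their ratios, 0.060 for Fli1 and 0.042 for Runx1 with the pseudocount, turned below 0 when both libraries were rescaled to a common total (-0.076 for Fli1 and -0.096 for Runx1) or scaled without mitochondrially encoded genes (-0.0014 for Fli1 and -0.020 for Runx1). On a common total the interval of Runx1, -0.20 to -3.1e-05, just excluded equality, and that of Fli1, -0.27 to 0.11, included it. With fragments also divided by 6, the interval of Runx1 was -0.35 to 0.15 and included equality.

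Hlf, Meis1 and Mecom, grouped here as the members tied most closely to immature cells, were all lower in Cre-deletion HSCs. This was not particular to the group, since Erg, outside it, had a lower ratio than any of them (log2 ratio -0.33). Hlf, which marks HSCs among blood cells, was at 10.2 FPKM (1153 fragments) in Cre-deletion HSCs and 12.8 FPKM (1486 fragments) in control HSCs. Its log2 ratio was -0.32 with an interval of -0.43 to -0.21, and -0.60 to -0.043 with fragments divided by 6. Meis1 was at 5.32 FPKM (944 fragments) in Cre-deletion HSCs and 6.29 FPKM (1152 fragments) in control HSCs, a log2 ratio of -0.24 with an interval of -0.37 to -0.12. Mecom was at 1.36 FPKM (284 fragments) in Cre-deletion HSCs and 1.67 FPKM (360 fragments) in control HSCs. The interval of its log2 ratio was -0.53 to -0.069. For Meis1 and Mecom the intervals with fragments divided by 6, -0.56 to 0.070 and -0.88 to 0.28, included equality. The sum of the 3 genes was 16.9 FPKM in Cre-deletion HSCs and 20.8 in control HSCs, a 0.815-fold ratio, and 0.736-fold on a common total. Without mitochondrially encoded genes in the total, the log2 ratios with the pseudocount were -0.36 for Hlf, -0.26 for Meis1 and -0.22 for Mecom. This grouping by role was made with the values known. As deposited and with the pseudocount, 16.02% of all genes counted had a lower ratio than Hlf, 24.04% than Meis1 and 26.92% than Mecom. On that scale Mecom (-0.18) lay inside the quartiles of all genes. Without a pseudocount its log2 ratio was -0.30, below the lower quartile of -0.24. The HSC markers were mostly lower as well. Of the 12 at a mean of at least 1 FPKM, 10 were below 0, against 51.6% of all genes counted. The median of these markers was -0.23, and their part in these differences was not tested.

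**Figure D2:**
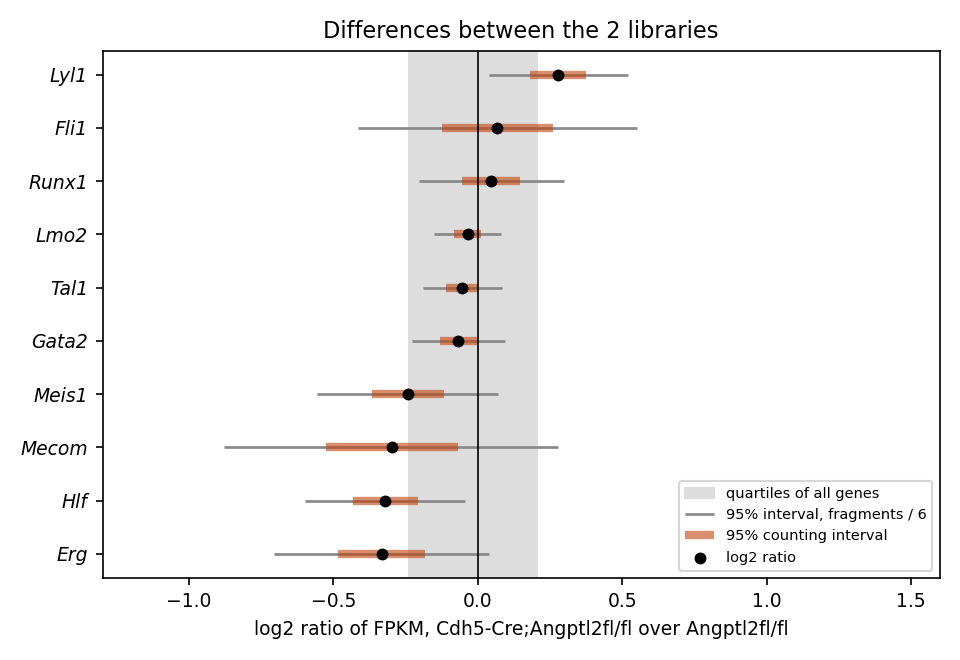
Log2 ratio of FPKM without a pseudocount, deletion over control, for each factor (points), with the 95% counting interval (thick bars) and the interval with fragments divided by 6 (thin lines). The grey band spans the quartiles of all genes counted, and Lyl1 (0.28) and Hlf (-0.32) were the members whose thin line stayed clear of 0.

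In all, the counting interval excluded equality for 6 of the 10 members, 5 lower and 1 higher in Cre-deletion HSCs. Among 11700 genes counted with fragment numbers in both libraries it did so for 56.8%, with 30% lower and 26.8% higher, so the share among the members was near that of all genes. With fragments divided by 6 it did so for 2 of the 10, Hlf (lower) and Lyl1 (higher), and for 18.2% of all genes, with 9.96% lower and 8.22% higher. On a common total, an alternative chosen after seeing the data, 9 of the 10 intervals excluded equality, 8 lower and 1 higher, against 61.6% of all genes, with 47.6% lower and 14% higher. With fragments also divided by 6 there were 6, all lower (Gata2, Tal1, Lmo2, Erg, Hlf and Meis1), against 24.5% of all genes, with 21.2% lower and 3.34% higher. Intervals narrow as fragment numbers rise, and none of these all-gene shares was matched to the fragment numbers of the members.

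**Figure D3:**
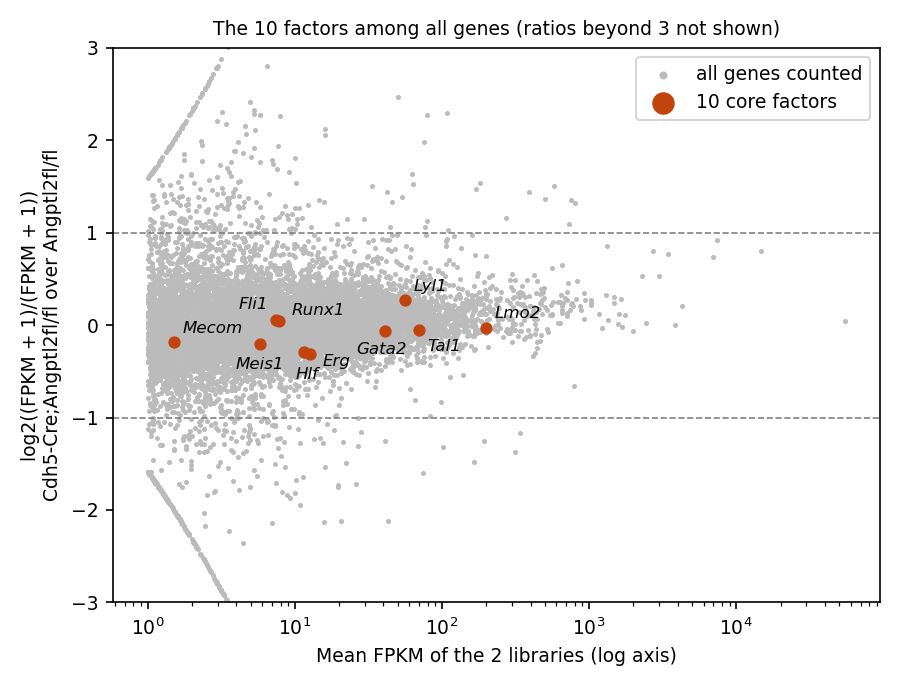
Log2 ratio with a pseudocount of 1, deletion over control, against the mean FPKM of both libraries (log axis), for all 12325 genes counted (grey) and the 10 factors (orange, labelled); dashed lines mark 2-fold. The factors lay between -0.31 and 0.27, inside the cloud of genes of like level.

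The order of the 10 levels was the same in both libraries: Lmo2, Tal1, Lyl1, Gata2, Erg, Hlf, Runx1, Fli1, Meis1 and Mecom. In Cre-deletion HSCs the intervals of 2 of the 9 steps between neighbours included equality, those from Erg to Hlf (1.09-fold, 0.990 to 1.20) and from Runx1 to Fli1 (1.03-fold, 0.932 to 1.15). In control HSCs only the step from Runx1 to Fli1 did (1.05-fold, 0.945 to 1.17). With fragments divided by 6, the neighbours not separated were 3 in each library, Tal1 and Lyl1 joining in Cre-deletion HSCs and Erg and Hlf, and Fli1 and Meis1, in control HSCs. FPKM is divided by the whole exon length of a gene, so these levels do not separate isoforms. That matters most for genes with several starts such as Runx1 and Mecom, whose models span 12025 and 12427 exon bases.

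Ratios between 2 genes of the same library do not depend on how that library was scaled. Of 7 pairs of a member with a relative or partner, 3 had a lower ratio in Cre-deletion HSCs and 4 a higher one. Tal1 stood at 1.10 times Lyl1 in Cre-deletion HSCs and 1.39 times in control HSCs. The log2 ratio of these ratios was -0.33, with an exact conditional interval of -0.45 to -0.22, and -0.61 to -0.054 with fragments divided by 6. Erg stood at 1.46 times Fli1 in Cre-deletion HSCs and 1.93 times in control HSCs, a log2 difference of -0.40 (-0.65 to -0.16). Here the interval with fragments divided by 6, -1.02 to 0.22, included 0.

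Runx1 relative to its partner subunit Cbfb was at 0.365 in Cre-deletion HSCs and 0.534 in control HSCs, a log2 difference of -0.55 (-0.71 to -0.39, and -0.96 to -0.15 with fragments divided by 6). As deposited, the difference lay in Cbfb, at 21.7 FPKM in Cre-deletion HSCs and 14.3 in control HSCs. Runx1 itself was not lower (log2 ratio 0.047), and its interval included equality. On a common total the log2 ratios with the pseudocount were 0.44 for Cbfb and -0.096 for Runx1. Hlf relative to Nfil3, a bZIP repressor that binds the same DNA motif, was at 4.32 in Cre-deletion HSCs and 2.30 in control HSCs, a log2 difference of 0.91 (0.51 to 1.32). Divided by 6, that interval was -0.12 to 1.92, and Nfil3 had 81 fragments in Cre-deletion HSCs and 196 in control HSCs.

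Other ratios hardly differed. Gata2 stood at 0.463 times Gata1, the factor that replaces it on DNA during erythroid differentiation, in Cre-deletion HSCs and at 0.454 times in control HSCs, with an interval of -0.065 to 0.12 on the log2 scale. Lmo2 stood at 1.21 times Ldb1 in Cre-deletion HSCs and 1.17 times in control HSCs; Ldb1 had no whole fragment number, so that pair has no interval. Mecom relative to Prdm16, a zinc finger relative also needed by HSCs, was at 0.955 in Cre-deletion HSCs and 0.888 in control HSCs, with an interval of -0.24 to 0.45. Of the 6 pairs with an interval, 4 excluded equality, and 2 did so with fragments divided by 6 (Tal1 and Lyl1, Runx1 and Cbfb).

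**Figure D4:**
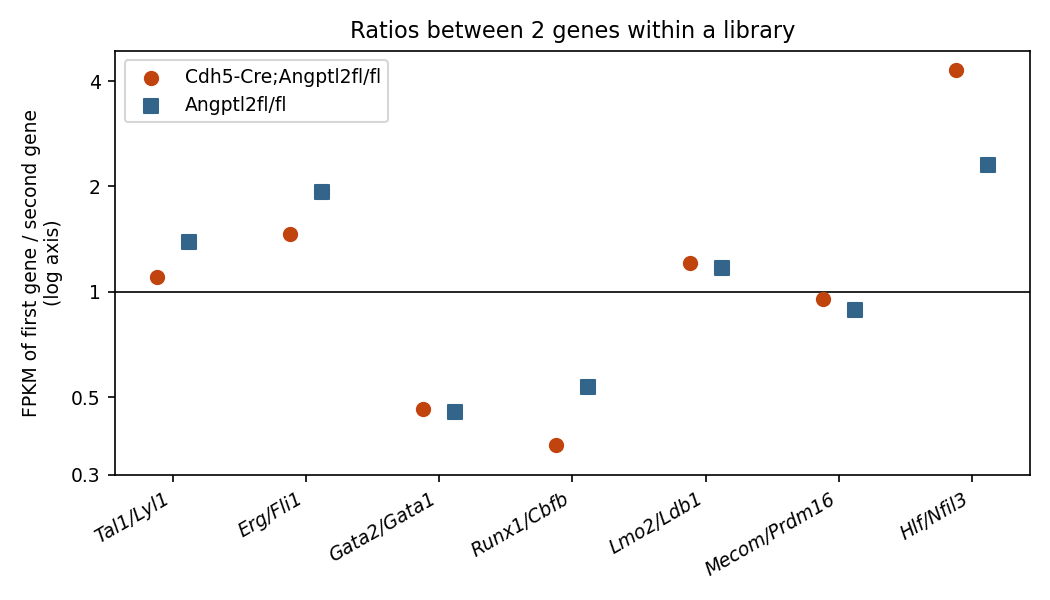
FPKM of the first gene over the second, within Cre-deletion HSCs (circles) and within control HSCs (squares), on a log axis, with a line at 1. Hlf over Nfil3 was 4.32 in Cre-deletion HSCs and 2.30 in control HSCs, and Gata2 over Gata1 was 0.463 in Cre-deletion HSCs and 0.454 in control HSCs.

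Relatives of the members in their DNA-binding families were counted next. Of 24 relatives, 18 reached a mean of 1 FPKM. None of the 18 passed 2-fold, 12 were below 0 and 6 above (14 and 4 on a common total), and the median log2 ratio was -0.11. Nfil3 was lowest, at 2.37 FPKM in Cre-deletion HSCs and 5.57 in control HSCs (-0.96, and past 2-fold at -1.20 with a pseudocount of 0.1, -1.24 on a common total and -1.01 on one without mitochondrially encoded genes), followed by Ets2, an ETS factor, at 7.48 FPKM in Cre-deletion HSCs and 9.81 in control HSCs (-0.35). Spi1, which encodes the myeloid ETS factor PU.1, was highest at 29.0 FPKM in Cre-deletion HSCs and 23.2 in control HSCs (0.31). Elf1, another ETS factor of blood cells, followed at 23.9 FPKM in Cre-deletion HSCs and 20.6 in control HSCs (0.21). Ets2 and Ets1 each neighbour a member, Ets2 beside Erg and Ets1 beside Fli1, although the potassium channel genes on their other sides lie nearer. Both were lower in Cre-deletion HSCs, Ets1 at 1.63 FPKM against 2.27 in control HSCs (-0.31). Tal2 was listed at 0 in control HSCs, and Meis2 and Fev at 0 in both.

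Proteins known to bind the members were all 20 above a mean of 1 FPKM. None of the 20 passed 2-fold, 14 were below 0 (17 on a common total), and the median was -0.10. Cbfb was highest (0.56), followed by Ssbp2, a protein that stabilises LDB1, at 7.53 FPKM in Cre-deletion HSCs and 6.33 in control HSCs (0.22). The acetyltransferase coactivators Crebbp and Ep300 were lowest. Crebbp was at 4.39 FPKM in Cre-deletion HSCs and 5.77 in control HSCs (-0.33), and Ep300 at 10.5 FPKM in Cre-deletion HSCs and 12.7 in control HSCs (-0.25). Ldb1 was at 164 FPKM in Cre-deletion HSCs and 173 in control HSCs, and the E protein gene Tcf3 at 116 FPKM in Cre-deletion HSCs and 110 in control HSCs. ID proteins bind E proteins and keep them from pairing with TAL1 or LYL1 on DNA. The mRNA levels of their genes ran from 0.24 FPKM (Id4) to 12.4 FPKM (Id1), both in control HSCs. The 3 of 4 at a mean of at least 1 FPKM were below 0, Id2 at 1.92 FPKM in Cre-deletion HSCs and 4.34 in control HSCs (-0.87), Id3 at 2.95 FPKM in Cre-deletion HSCs and 4.53 in control HSCs (-0.49) and Id1 at 9.93 FPKM in Cre-deletion HSCs and 12.4 in control HSCs (-0.29), while Id4, under that minimum, was at 0.49 FPKM in Cre-deletion HSCs and 0.24 in control HSCs. Id2 passed 2-fold at -1.13 with a pseudocount of 0.1 and at -1.16 on a common total, where the pseudocount of 1 also weighed less.

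Other regulators used for stem and progenitor cells gave 18 of 22 genes at a mean of at least 1 FPKM. None of the 18 passed 2-fold, 15 were below 0 and 3 above (18 and 0 on a common total), and the median was -0.18. The lowest were Tcf15, a helix-loop-helix factor of quiescent HSCs, at 1.09 FPKM in Cre-deletion HSCs and 2.64 in control HSCs (-0.80), from 18 fragments in Cre-deletion HSCs and 45 in control HSCs, and Nkx2-3, a homeodomain factor, at 8.80 FPKM in Cre-deletion HSCs and 15.5 in control HSCs (-0.75). Tcf15 passed 2-fold at -1.20 with a pseudocount of 0.1 and at -1.15 on a common total, where the pseudocount of 1 also weighed less. The highest were Hhex, a homeodomain factor of progenitors, at 33.7 FPKM in Cre-deletion HSCs and 30.8 in control HSCs (0.12) and Myb, a driver of progenitor growth, at 59.3 FPKM in Cre-deletion HSCs and 54.5 in control HSCs (0.12). On a common total both were below 0 (-0.019 for Hhex and -0.025 for Myb). Hoxb5 was at 0.15 FPKM in Cre-deletion HSCs and 0.35 in control HSCs and Sox17 was listed at 0 in both.

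Genes known to be regulated by the members did not move together. Of the 24, 21 reached a mean of 1 FPKM, and of these 3 were 2-fold or more higher in Cre-deletion HSCs, 0 lower by as much and 18 between, with a median of -0.044. Across all genes 2.47% were at least as much higher and 3.38% at least as much lower. The 3 were Pf4, a platelet chemokine, and the neutrophil granule genes Mpo and Elane, the last at 1084 FPKM in Cre-deletion HSCs and 423 in control HSCs. Slc4a1, the red cell anion exchanger, was lowest at 3.44 FPKM in Cre-deletion HSCs and 6.56 in control HSCs (-0.77), followed by Csf2rb, a shared cytokine receptor chain whose close copy Csf2rb2 could take some of its fragments, at 2.37 FPKM in Cre-deletion HSCs and 4.11 in control HSCs (-0.60). Epor, the erythropoietin receptor, was at 97.8 FPKM in Cre-deletion HSCs and 101 in control HSCs, and Cd34 at 5.43 FPKM in Cre-deletion HSCs and 7.87 in control HSCs (-0.46).

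**Figure D5:**
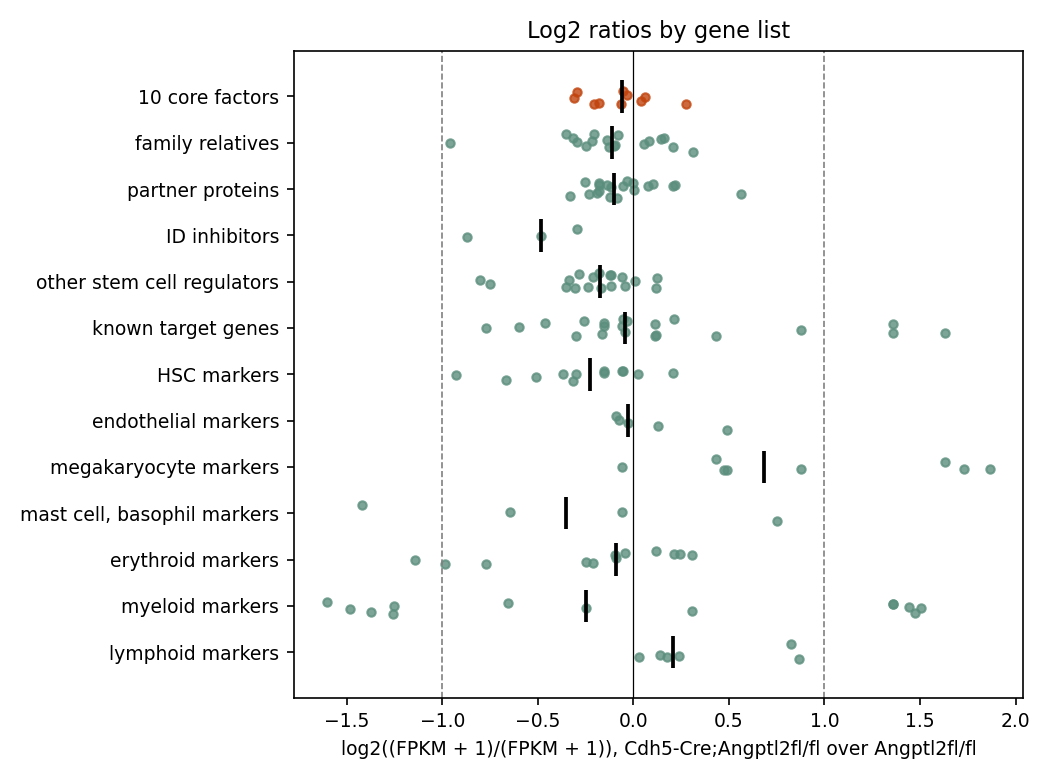
Log2 ratios with a pseudocount of 1, deletion over control, of every gene at a mean of at least 1 FPKM in 13 gene lists; black bars are medians and dashed lines mark 2-fold. The 10 factors had a median of -0.059, and genes past 2-fold stood among the known targets and the megakaryocyte, mast cell, erythroid and myeloid markers.

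Several members are also expressed outside HSCs, so markers of those cells were read in full. ERG, FLI1, TAL1 and GATA2 act in endothelium, whose markers were at mixed levels. Cdh5 was listed at 0 in Cre-deletion HSCs and at 0.027 FPKM in control HSCs, Sox17 at 0 in both and Kdr at 0.14 FPKM in Cre-deletion HSCs and 0.096 in control HSCs. The 12 endothelial markers summed to 40.4 FPKM in Cre-deletion HSCs and 38.8 in control HSCs, with 5 of the 12 at a mean of at least 1 FPKM. These were Plvap at 12.2 FPKM in Cre-deletion HSCs and 11.1 in control HSCs, Tie1 at 11.3 FPKM in Cre-deletion HSCs and 11.6 in control HSCs, Egfl7 at 7.48 FPKM in Cre-deletion HSCs and 7.94 in control HSCs, Vwf at 4.90 FPKM in Cre-deletion HSCs and 3.21 in control HSCs, and Pecam1 at 3.55 FPKM in Cre-deletion HSCs and 3.84 in control HSCs. RUNX1, FLI1, ERG and MEIS1 act in megakaryocytes, whose 10 markers summed to 179 FPKM in Cre-deletion HSCs and 83.1 in control HSCs. Of the 8 counted, 7 were above 0 and 3 at least 2-fold higher, or 1 with a pseudocount of 5, and Gp1bb was listed at 0 in Cre-deletion HSCs. Mast cells and basophils express Gata2. Their 8 markers summed to 17.5 FPKM in Cre-deletion HSCs and 26.3 in control HSCs, with Cma1 and Tpsb2 at 0 in both. Prss34 was at 3.95 FPKM in Cre-deletion HSCs and 12.3 in control HSCs, 1 of 4 counted past 2-fold (0 with a pseudocount of 5), and Cpa3 was highest at 3.68 FPKM in Cre-deletion HSCs and 1.78 in control HSCs, past 2-fold only with a pseudocount of 0.1. The 12 erythroid markers had a median of -0.091, with 1 at least 2-fold lower (Alas2, at 1.51 FPKM in Cre-deletion HSCs and 4.53 in control HSCs), which became 0 with a pseudocount of 5 and 2 with one of 0.1 or either common total.

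The 13 myeloid markers summed to 4157 FPKM in Cre-deletion HSCs and 3629 in control HSCs, with 5 at least 2-fold higher, led by Ms4a3, and 5 at least 2-fold lower, led by Ltf. The 12 lymphoid markers summed to 24.8 FPKM in Cre-deletion HSCs and 18.6 in control HSCs, and all 6 counted were above 0, or 5 of the 6 with either common total, and 1 passed 2-fold with a pseudocount of 0.1. The list was split, since most markers under the minimum mean went the other way. Ebf1, Pax5, Il7r, Cd3e and Cd3g were lower in Cre-deletion HSCs, and Rag1 was higher. Ebf1 was at 0.25 FPKM in Cre-deletion HSCs and 0.48 in control HSCs, and Rag1 at 0.63 FPKM in Cre-deletion HSCs and 0.37 in control HSCs. The part of these cell types in the differences of the 10 factors was not tested.

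Overlapping genes could add fragments to 4 of the members, since strand use in the authors' counting is not stated. The antisense gene Gm26626 shares 106 exon bases with Runx1 and was at 0.30 FPKM in Cre-deletion HSCs and 2.02 in control HSCs. Meis1 shares 1029 exon bases with Gm37818, on the same strand, at 0.79 FPKM in Cre-deletion HSCs and 1.83 in control HSCs, and 896 with the antisense gene Gm16140, at 0.32 FPKM in Cre-deletion HSCs and 0 in control HSCs. Mecom shares 81 bases with its antisense transcript Mecomos, at 0 FPKM in Cre-deletion HSCs and 0.037 in control HSCs. Lyl1 shares 4 bases with Nfix, on the opposite strand, at 14.1 FPKM in Cre-deletion HSCs and 17.4 in control HSCs (-0.28). Of the nearest protein-coding neighbours, Pdzk1ip1 beside Tal1 was at 6.95 FPKM in Cre-deletion HSCs and 11.6 in control HSCs (-0.67), while Stil on the other side was at 8.20 FPKM in Cre-deletion HSCs and 8.76 in control HSCs. Beside Lyl1, Trmt1 was at 30.1 FPKM in Cre-deletion HSCs and 31.0 in control HSCs, a log2 ratio of -0.044, and G430095P16Rik on the other side at 7.16 FPKM in Cre-deletion HSCs and 4.39 in control HSCs (0.60).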

How the data were processed

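RNA of sorted bone marrow HSCs was extracted with TRIzol and a column kit and sequenced, per the labels' protocols. The deposited FPKM were calculated by the authors, per the file itself. The submitters' processing notes name Bowtie 0.12.2 and the build mm8, with no role; how reads were assigned to genes is not given in the sources used here. Symbols, exon lengths and positions came from GENCODE M21 (GRCm38), so no position is on the build of the notes. Promoters are RefSeq's, on GRCm38.p6.

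Fragment numbers were recovered from FPKM and exon length. Log2 ratios use a pseudocount of 1 FPKM, which understates differences of low genes, and genes at a mean of at least 1 FPKM were counted; plain ratios carry the intervals. The computation was tested on simulated data. Python 3.11.15, numpy 2.4.6, scipy 1.17.1 and pandas 2.3.3 were used. The members, lists and tests were chosen with earlier results of these data known. Named are all members, both genes of each pair and the 2 highest and 2 lowest of each list; the rest were named after their values were seen, and some genes the rule selects, and 1 planned pair, are not reported here.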

Additional observations from a re-analysis of the deposited data

How the results depend on the processing

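None of the 10 factors passed the fold threshold with a pseudocount of 0.1 or 5, no minimum mean or a minimum of 5 FPKM (which keeps 9 factors), a common total of 1000000, centring, trimmed-mean scaling, scaling without mitochondrially encoded genes, or thresholds of 1.5-fold and 4-fold. Their median log2 ratio was -0.059, and between -0.13 and -0.048 under these settings except the common total, which put it at -0.21. With it the all-gene median was -0.16, over 15021 genes in place of 12325, so the members stood 0.048 below it, as before. Relative to all genes the members stood between 0.013 and 0.057 lower in every setting. Of the 10, 8 kept the sign of their log2 ratio in all 6 rescalings and pseudocounts; Runx1 and Fli1 did not. With fragments divided by 6, members whose interval excluded equality numbered 2 in place of 6. On a common total they numbered 9, and 6 with fragments also divided by 6, where the interval of Lyl1 included equality. A pseudocount of 1 moved none of the 6 pair ratios that have a counting interval beyond it. Lmo2 over Ldb1 has no interval. No paired analysis was possible because there was 1 library per genotype. Depth limits Fli1 and Mecom most, with 449 and 284 fragments in Cre-deletion HSCs.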
